A study of Mus musculus with 6 samples.

Results

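The axon guidance ligands and receptors of the mouse distal midgut were the genes of 4 ligand and receptor systems: netrins with Dcc, neogenin and the Unc5 receptors, Slits with Robo receptors, semaphorins with neuropilins and plexins, and ephrins with Eph receptors. Members were chosen by gene symbol alone, from probes that the platform annotation gives a single symbol, and no signal value entered this rule. The rule was set with earlier results of these data known. This gave 59 genes on 64 probes, of 13840 named genes and 33012 probes on the array, with 29 genes for ligands and 30 for receptors. A further 10 mouse genes that meet the same rule in the RefSeq gene table (*Efna3*, *Ephb2*, *Ntn5*, *Plxnb2*, *Plxnd1*, *Robo3*, *Sema3c*, *Sema3g*, *Sema4c* and *Slit3*) have no single-symbol probe used here and were not analysed.

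RNA of the distal part of the midgut was taken at embryonic stage E13.5 from Id2-/- embryos, which carry a null genotype in every tissue, and from wild-type (Id2+/+) littermates, and each of the 3 samples per genotype was hybridised to 1 single-color array. Id2 is a helix-loop-helix protein without a DNA-binding region that keeps its basic helix-loop-helix partners off DNA, and the study compared the genotypes to see which midgut genes depend on it. The mutant line was kept on an inbred or a mixed background, and which of these the arrayed embryos had, their sex and whether a sample was a single embryo are not stated in the sources used here. The p-values below therefore measure only the spread between these samples. No probe used here is named *Id2*, so the genotypes rest on the labels.

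Guidance cues are secreted or membrane-bound proteins that steer growing axons and migrating cells by attracting or repelling them. Netrins attract through Dcc and neogenin and repel through Unc5 receptors, Slits repel through Robo receptors, semaphorins act through plexins with neuropilins as co-receptors for most of the secreted class, and ephrins signal through Eph receptors on a touching cell, with a return signal into the ephrin-bearing cell. In the embryonic gut these systems are known for guiding neural crest cells, which form the enteric nervous system, and for patterning vessels and sorting epithelial cells.

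Signals are given as log2 of the value that the authors divided by the median of each array, and every difference is Id2-/- minus Id2+/+ on that scale. A probe was called above background at a signal-to-noise value of at least 3, and entered the test if no array flagged it and if at least 1 genotype had it above background throughout. That left 12741 probes, and 21 of the 59 guidance genes (35.6%) against 7322 of the 13840 named genes (52.9%). Levels of different probes are not on a common scale and are not compared. The arrays numbered 1 of both genotypes stood apart from the remaining 4. Across probes, the signals of both arrays numbered 1 correlated at r = 0.984, those of the remaining 4 arrays at 0.979 to 0.988, and those of an array numbered 1 with any of the remaining 4 at 0.909 to 0.931. Among those 4, arrays of the same genotype correlated at 0.987 (Id2-/-) and 0.988 (Id2+/+), and same-numbered arrays at 0.983 (number 2) and 0.979 (number 3). What the numbers stand for is not stated in the sources used here. Within same-numbered pairs the median over all tested probes was 0.35 for number 1, -0.04 for number 2 and -0.19 for number 3, and pair values are read against these medians.

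Most guidance genes were below background on the arrays numbered 2 and 3, but not on those numbered 1. Above background were 40, 24 and 25 of the 59 genes on the Id2-/- arrays numbered 1, 2 and 3, against 36, 23 and 25 on the Id2+/+ arrays. As a share this was 67.8%, 40.7% and 42.4% on the Id2-/- arrays and 61.0%, 39.0% and 42.4% on the Id2+/+ arrays. Among all named genes the share was 65.5%, 55.4% and 56.6% on the Id2-/- arrays and 63.1%, 57.2% and 57.7% on the Id2+/+ arrays, so the share of guidance genes lay below that of named genes on the arrays numbered 2 and 3 of both genotypes and within 3 percentage points of it on those numbered 1. Taking each gene by its best probe, 20 were above background on all 6 arrays, 27 on some and 12 on none. A probe below background bounds the signal of that probe only. In bulk tissue, fewer cells of a type and less RNA per cell cannot be told apart.

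**Figure D1:**
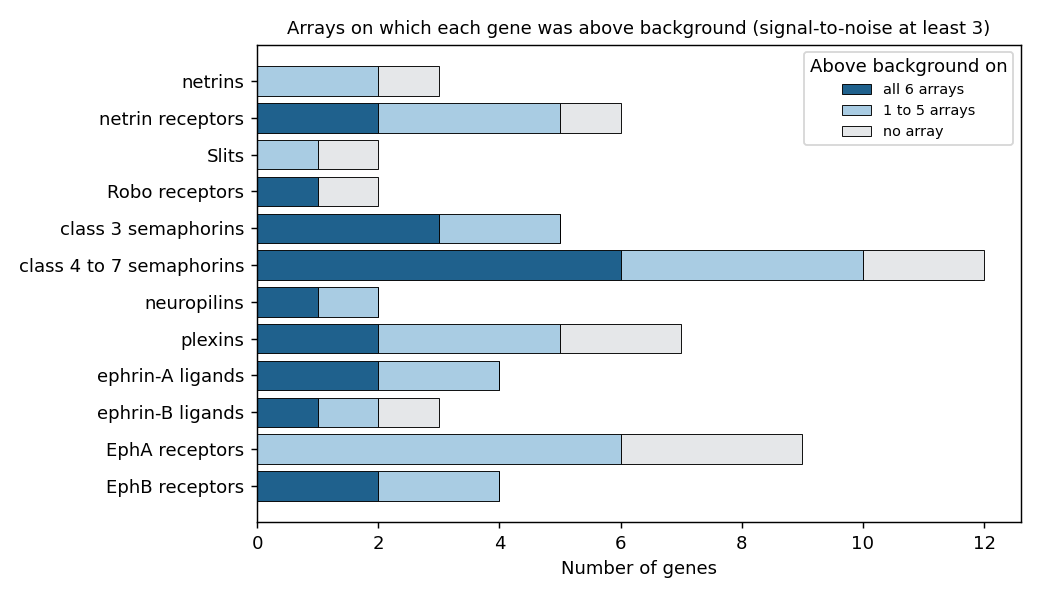
Number of guidance genes (horizontal axis) in each family (vertical axis), split by the number of arrays on which the gene's best probe was above background: all 6, 1 to 5, or none of the arrays. None of the 9 EphA receptor genes, 3 netrin genes or 2 Slit genes has a dark segment for all 6 arrays, while 6 of 12 class 4 to 7 semaphorin genes do.

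The systems differed in which side was measured. *Ntn1*, the best-known netrin, was above background on no array, *Ntn4* on 1 Id2+/+ array, and *Ntn3* on 2 Id2-/- and 2 Id2+/+ arrays, so no netrin was tested. On the receptor side the repulsive receptors *Unc5a* and *Unc5b* were above background on all 6 arrays. The attractive receptor *Dcc* was above background on none, and its relative *Neo1* (neogenin) on 2 Id2-/- arrays and 1 Id2+/+ array. The Slits with a probe were alike in this, with *Slit1* above background on no array and *Slit2* on 1 array of each genotype. Of the Slit receptors, *Robo1* was above background on all 6 arrays and *Robo2* on none. *Slit3* and *Robo3* had no probe used here.

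In the semaphorin system both sides were measured. Of 5 class 3 genes, which encode secreted semaphorins, *Sema3a*, *Sema3b* and *Sema3d* were above background on all 6 arrays. Of 12 genes of classes 4 to 7, which encode membrane-bound semaphorins, *Sema4a*, *Sema4d*, *Sema5a*, *Sema6a*, *Sema6b* and *Sema7a* were, and *Sema4f* and *Sema6c* were above background on no array. Of their receptors, *Nrp2*, *Plxna2* and *Plxnb1* were above background on all 6 arrays, and *Plxna4* and *Plxnc1*, the plexin that binds Sema7a, on none.

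In the ephrin system the ligands *Efna1* and *Efna2*, which are anchored in the membrane by a lipid, and *Efnb1*, which spans it, were above background on all 6 arrays, and *Efna4* on 5. Of 4 EphB receptor genes *Ephb1* and *Ephb4* were above background on all 6. Of 9 EphA receptor genes, whose products bind mainly ephrin-A ligands, 0 were. Together the 9 EphA genes were above background 7 times on the Id2-/- arrays and 3 times on the Id2+/+ arrays, and over all 59 genes the count was 89 on the Id2-/- arrays and 84 on the Id2+/+ arrays. Above background on 2 Id2-/- arrays and on no Id2+/+ array were 4 genes (*Epha2*, *Epha4*, *Ephb6* and *Plxnb3*), or 6.78% of the 59, against 0.831% of all named genes. On no Id2-/- array and 2 Id2+/+ arrays were 0 of 59, against 0.795% of all named genes. A neighbouring pattern ran the other way, with *Sema5b*, *Plxna3*, *Epha3* and *Ephb3* above background on 1 Id2-/- array and 2 Id2+/+ arrays. Only *Neo1* was above background on 2 Id2-/- arrays and 1 Id2+/+ array. *Epha2*, *Epha4*, *Ephb6* and *Plxnb3* were all above background on the Id2-/- array numbered 1, the array with the most guidance genes above background. On their other array, the Id2-/- array numbered 3, *Epha2* and *Plxnb3* had signal-to-noise values of 3.05 and 3.26, just over the limit. *Epha2* counts here by its best probe, and its other probe was above background on no array. *Epha4*, which encodes a receptor for ephrins of both classes and is named after its values were seen, had signal-to-noise values of 8.14, 1.19 and 4.80 on the Id2-/- arrays and 1.99, -0.46 and -0.06 on the Id2+/+ arrays. Its Id2-/- arrays were thus on both sides of the limit of 3, and it was not tested. For *Ephb6*, which encodes an Eph receptor without kinase activity, the values were 3.05, 3.70 and 2.66 on the Id2-/- arrays and 2.76, 2.73 and 1.94 on the Id2+/+ arrays, on both sides of the limit on the Id2-/- arrays and just under it on 2 of the Id2+/+ arrays.

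Between the genotypes, no guidance gene passed the test. In limma with Benjamini-Hochberg adjustment over all tested probes, 0 of 21 guidance genes were higher or lower, against 0% of the 12741 probes, and the smallest adjusted p among the 21 was 1.0. The smallest unadjusted p in limma was 0.182, and 0 of 21 were under 0.05, against 234 probes in all. The arrays numbered 1 departed from the genotype means in the same way, but these departures did not clearly match numbers 2 and 3 to their pairs. With the array number as a block limma again called 0 of the 21 genes, against 2.18% of all tested probes. In that fit 0 of 21 had an unadjusted p under 0.05, against 879 probes in all. With 3 arrays against 3, an exact permutation test of a single gene cannot give a two-sided p below 0.1.

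The genotype means of the 21 genes lay close together. Differences ran from -0.42 for *Sema3b* to 0.43 for *Sema5a*, with a median of 0.08, against 0.04 over all tested probes. At least 1.5-fold apart were 0 of 21, against 5.86% of all tested probes. Leaving out 1 array changed that count: it was 3 without the Id2-/- array numbered 1 (*Unc5b*, *Efna1*, *Efna4*), 1 without the Id2-/- array numbered 3 (*Efna4*), 3 without the Id2+/+ array numbered 1 (*Sema3b*, *Sema4a*, *Efna4*), 2 without the Id2+/+ array numbered 2 (*Unc5b*, *Sema5a*) and 1 without the Id2+/+ array numbered 3 (*Plxna2*). The size of the difference, without regard to sign, had a median of 0.18 over the 21 genes and 0.12 over all tested probes. The precision was low. The limma standard errors ran from 0.24 to 0.95, and the 95% intervals of the differences reached as far as -2.16 and 2.32, both for *Efna4*. For 11 of 21 genes the interval stayed within 1 log2 unit of 0, and for 0 of 21 within 1.5-fold, so a change of that size was not shown to be absent for any of them.

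**Figure D2:**
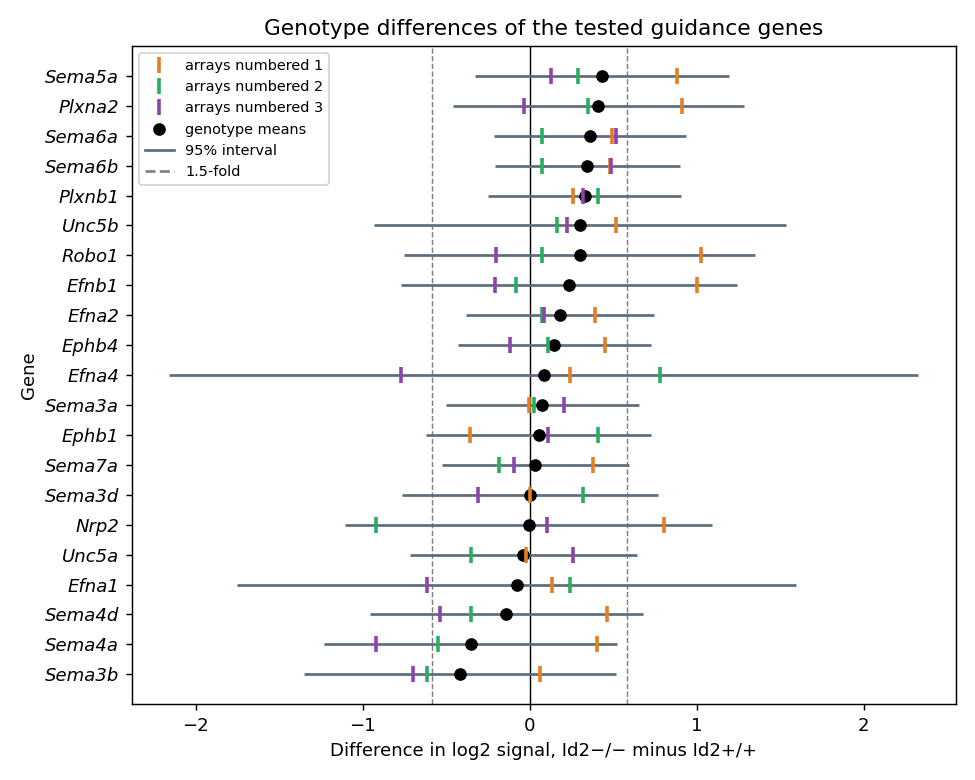
Difference in log2 signal between the Id2-/- and Id2+/+ means (horizontal axis, dots) of the 21 tested guidance genes (vertical axis), with the 95% interval of limma as a line and the differences of the 3 same-numbered pairs as colored ticks. All 21 intervals cross 0 and all 21 dots lie inside the dashed lines at 1.5-fold, from -0.42 for *Sema3b* to 0.43 for *Sema5a*.

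Positive differences were seen for 15 of 21 genes (71.4%), against 60.4% of all tested probes. Higher in all 3 same-numbered pairs were 6 of 21 (28.6%), against 11.8% of all tested probes, and lower in all 3 pairs were 0 of 21, against 5.64%. The 6 were the ligand genes *Sema5a*, *Sema6a*, *Sema6b* and *Efna2* and the receptor genes *Unc5b* and *Plxnb1*. After quantile normalization, which gives every array the same distribution of values, 8 of 21 were higher in all 3 pairs, against 16.2% of all tested probes, and 5 of the 8 were also among the 6, *Plxnb1* not among them. In that scaling 1 of 21, *Sema3b*, was lower in all pairs, against 13.2%. The median over the 21 genes was 0.40 in the pair numbered 1, 0.07 in that numbered 2 and -0.03 in that numbered 3, against 0.35, -0.04 and -0.19 over all tested probes. Without both arrays numbered 1 the median was 0.003, against -0.11 over all tested probes.

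*Sema6b*, which encodes a transmembrane semaphorin that binds A-type plexins, was the 1 gene of 21 whose Id2-/- arrays all lay above the Id2+/+ arrays, against 2.73% of all tested probes. For 0 of 21 did they all lie below, against 1.29%. The log2 signal of *Sema6b* (probe 747504) was 3.70, 3.64 and 3.95 on the Id2-/- arrays numbered 1, 2 and 3, against 3.22, 3.57 and 3.47 on the Id2+/+ arrays. The lowest Id2-/- value, 3.64, was close to the highest Id2+/+ value, 3.57, and both came from the arrays numbered 2. The means were 3.76 ± 0.16 for Id2-/- and 3.42 ± 0.18 for Id2+/+ (SD, n = 3 each), a difference of 0.35 with a standard error of 0.24, or 1.27-fold. The 95% interval was -0.21 to 0.90, and the gene did not pass limma (adjusted p = 1.0). Its difference stayed between 0.25 and 0.42 over all processing alternatives tried.

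**Figure D3:**
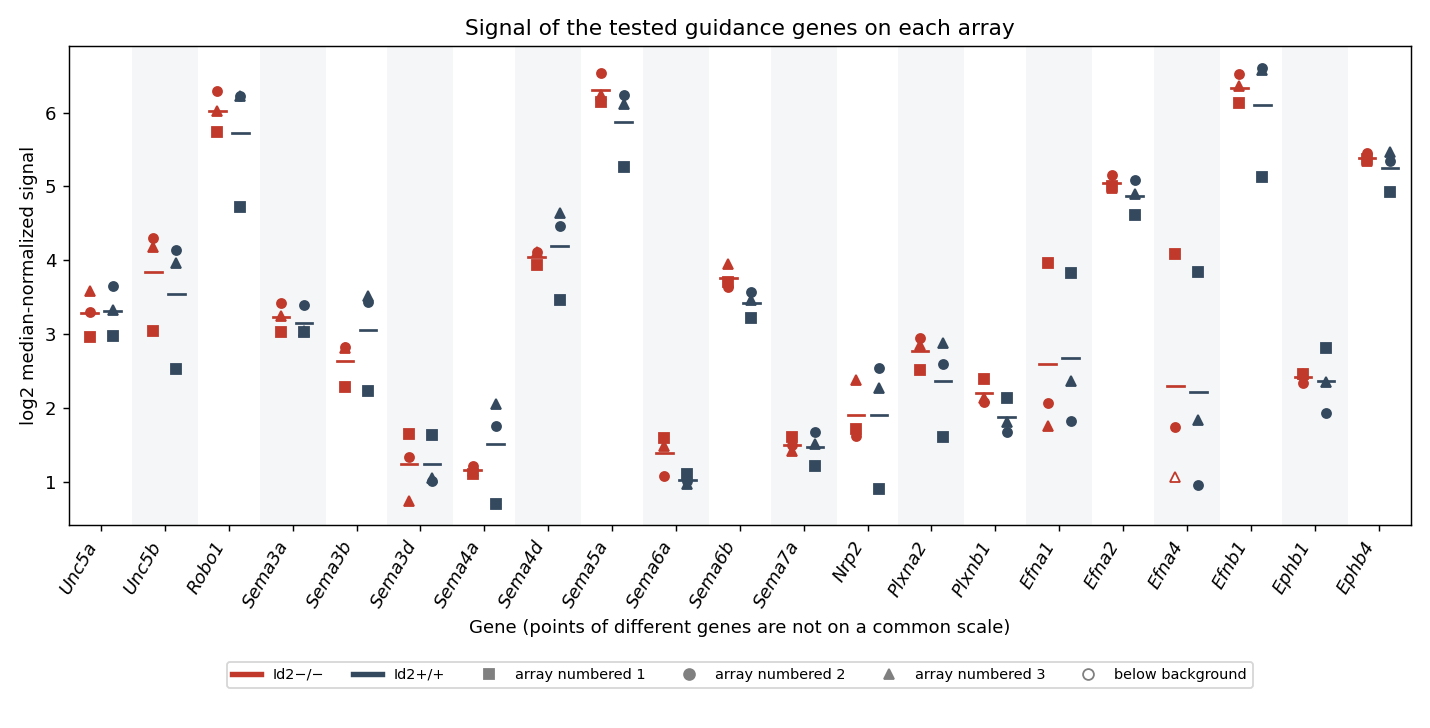
Log2 median-normalized signal (vertical axis) of the 21 tested guidance genes (horizontal axis) on the 3 Id2-/- arrays (left, red) and the 3 Id2+/+ arrays (right, blue), with a marker shape for each array number, horizontal bars for means and open markers below background. For *Efna1* and *Efna4* the squares of the arrays numbered 1 lie far above the other markers in both genotypes, and for *Sema6b* the 3 red markers lie above the 3 blue ones.

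Among the netrin receptors, *Unc5b* (probe 881755), known as a receptor of endothelial tip cells, had log2 signals of 3.04, 4.30 and 4.18 on the Id2-/- arrays and 2.53, 4.13 and 3.96 on the Id2+/+ arrays. Each Id2-/- array was above the Id2+/+ array of the same number, by 0.52, 0.16 and 0.22, but the array numbered 1 was the lowest in both genotypes and the groups overlapped. The difference was 0.30 (standard error 0.53), but -0.20 when the Id2+/+ array numbered 1 was left out. *Unc5a* differed by -0.04, with groups that overlapped as well.

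For *Robo1* (probe 761860), the Slit receptor, the log2 signals were 5.74, 6.30 and 6.02 on the Id2-/- arrays and 4.72, 6.23 and 6.23 on the Id2+/+ arrays. The Id2+/+ array numbered 1 stood 1 log2 unit or more below every other array, and the other 5 overlapped. The difference of 0.30 (standard error 0.45) was -0.21 without that array and -0.07 without both arrays numbered 1.

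The secreted semaphorin gene with the smallest p was *Sema3b* (probe 907228), whose product binds neuropilins. Its log2 signals were 2.29, 2.82 and 2.81 on the Id2-/- arrays and 2.23, 3.44 and 3.51 on the Id2+/+ arrays. The pairs numbered 2 and 3 differed by -0.62 and -0.70 and the pair numbered 1 by 0.06, which gave the most negative difference of the 21 genes, -0.42 (standard error 0.40). It was -0.83 without the Id2+/+ array numbered 1 and -0.66 without both arrays numbered 1. *Sema3a*, a repellent that signals through Nrp1, differed by 0.08, and *Sema3d* by 0.00.

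The 6 tested genes of the membrane semaphorins spread from -0.35 for *Sema4a* to 0.43 for *Sema5a*. *Sema6a* (probe 633551), whose product binds plexin-A2 and plexin-A4, had log2 signals of 1.60, 1.08 and 1.49 on the Id2-/- arrays and 1.11, 1.01 and 0.98 on the Id2+/+ arrays. The Id2-/- arrays numbered 1 and 3 were above all Id2+/+ arrays, and the Id2-/- array numbered 2 lay among them. The difference was 0.36 (standard error 0.24). *Sema5a* (probe 377059, named after its values were seen), which encodes a semaphorin with thrombospondin repeats, had log2 signals of 6.14, 6.53 and 6.25 on the Id2-/- arrays and 5.26, 6.24 and 6.12 on the Id2+/+ arrays. The Id2+/+ array numbered 1 was again the low one, and the difference of 0.43 (standard error 0.32) was 0.21 without both arrays numbered 1. *Sema4a* and *Sema4d*, whose products bind B-type plexins among others, differed by -0.35 and -0.14, and *Sema7a*, a lipid-anchored semaphorin, by 0.03.

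Of the receptors of semaphorins, *Plxnb1* (probe 376054), the receptor of Sema4d, had log2 signals of 2.40, 2.08 and 2.13 on the Id2-/- arrays and 2.13, 1.68 and 1.81 on the Id2+/+ arrays. Its pair differences of 0.26, 0.41 and 0.32 were the most even among the genes higher in all pairs, and the mean difference was 0.33 (standard error 0.25). After quantile normalization the pair numbered 1 differed by -0.02. *Plxna2*, a receptor of Sema6a, differed by 0.41 with pair values of 0.91, 0.35 and -0.03.

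The brightest probe of *Nrp2* (probe 824687), a co-receptor for secreted semaphorins, gave log2 signals of 1.71, 1.62 and 2.38 on the Id2-/- arrays and 0.91, 2.54 and 2.28 on the Id2+/+ arrays, with a difference of -0.01 (standard error 0.47). The probes of this gene did not behave alike. On the second probe only the arrays numbered 1 were above background, with log2 signals of 1.68 on the Id2-/- array and 1.11 on the Id2+/+ array, while on the brightest probe the Id2+/+ array numbered 1 was the lowest of the 6. *Epha2*, *Sema4d* and *Sema7a* also had a second probe, none of which was tested. The differences on these were -0.39, 0.59 and -0.02, against 0.74, -0.14 and 0.03 on the best probe, which for *Epha2* was not tested either.

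In the ephrin system, *Efna2* (probe 858308) had log2 signals of 5.0, 5.16 and 4.98 on the Id2-/- arrays and 4.61, 5.09 and 4.90 on the Id2+/+ arrays, with pair differences of 0.39, 0.07 and 0.08 and a mean difference of 0.18 (standard error 0.24). The Id2+/+ array numbered 1 was the low one, and the other 5 values overlapped. *Ephb4* (probe 517770), a receptor of ephrin-B2 known from veins, had 5.38, 5.45 and 5.34 on the Id2-/- arrays and 4.93, 5.34 and 5.46 on the Id2+/+ arrays. The difference of 0.15 (standard error 0.25) turned to -0.01 when the Id2+/+ array numbered 1 was left out. For *Efnb1* (probe 916361, named after its values were seen), a transmembrane ligand of EphB receptors, the signals were 6.13, 6.53 and 6.36 on the Id2-/- arrays and 5.13, 6.61 and 6.57 on the Id2+/+ arrays. Its difference of 0.24 was -0.15 without both arrays numbered 1, against a median of -0.11 over all tested probes, and after quantile normalization its pairs numbered 2 and 3 differed by 0.0077 and 0.019. *Ephb1*, another receptor of B-type ephrins, differed by 0.05.

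The guidance genes differed more between the arrays numbered 1 and the other 4 than between the genotypes. For 19 of 21 genes the mean of the arrays numbered 1 lay farther from the mean of the other 4 than the genotype means lay from each other, as for 82.8% of all tested probes. The size of this shift had a median of 0.60 over the 21 genes and 0.53 over all tested probes. Both arrays numbered 1 lay above the other 4 for 4 of 21 genes, against 27.6% of all tested probes, and below them for 9 of 21, against 31.1%. Outside the other 4 in either direction were thus 61.9% of the guidance genes and 58.7% of all tested probes. The shift had the same sign in both genotypes for 20 of 21 genes, the exception being *Sema7a*. Its size reached 1 log2 unit for 3 of 21, against 21.1% of all tested probes. The lowest of the 6 signals was on the Id2+/+ array numbered 1 for 13 of 21 genes (61.9%), against 46.0% of all tested probes.

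**Figure D4:**
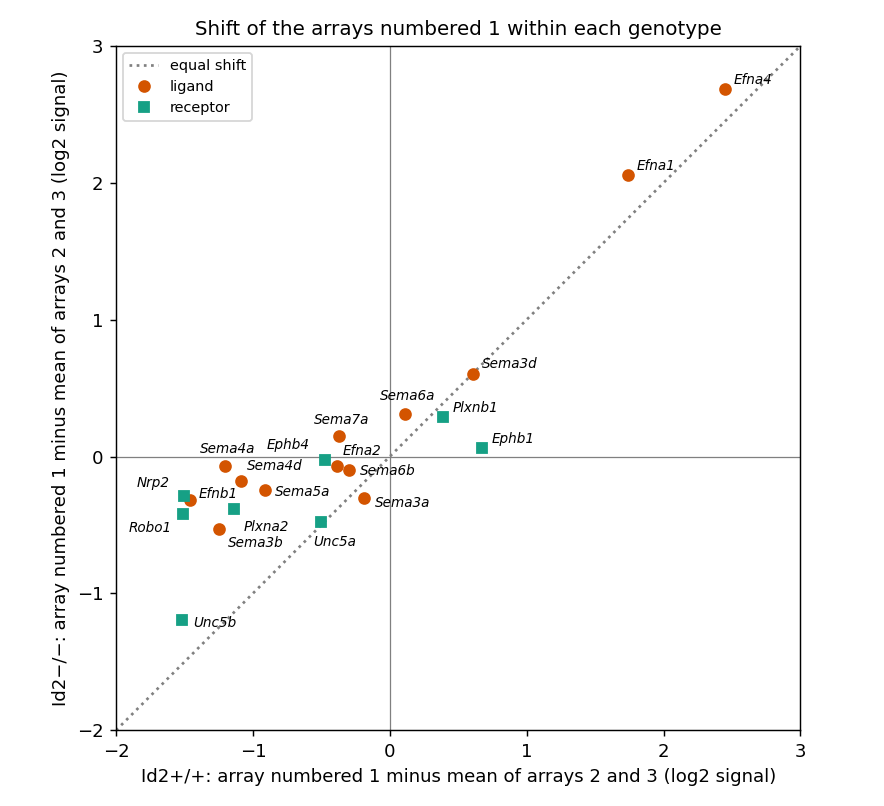
Shift of the array numbered 1 from the mean of the arrays numbered 2 and 3, in log2 signal, in Id2-/- (vertical axis) and Id2+/+ samples (horizontal axis) for the 13 tested ligand genes (circles) and 8 tested receptor genes (squares), with a dotted line for equal shifts. *Efna4* and *Efna1* lie at the upper right, at 2.69 and 2.06 in Id2-/- and 2.45 and 1.74 in Id2+/+, and *Unc5b* at the lower left, at -1.20 in Id2-/- and -1.52 in Id2+/+.

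The 3 genes with the widest shift, named after their values were seen, were *Efna4*, *Efna1* and *Unc5b*, at 2.57, 1.90 and -1.36. *Efna1* (probe 792870), which encodes a ligand of EphA receptors, had log2 signals of 3.97, 2.07 and 1.76 on the Id2-/- arrays and 3.83, 1.82 and 2.37 on the Id2+/+ arrays. *Efna4* (probe 337209), another A-type ephrin, had 4.08, 1.73 and 1.06 on the Id2-/- arrays and 3.84, 0.96 and 1.83 on the Id2+/+ arrays, and was below background on the Id2-/- array numbered 3. In both genes the arrays numbered 1 were the high ones in each genotype and the other 4 overlapped, with genotype differences of -0.08 and 0.08. In the RefSeq gene table *Efna1* and *Efna4* are neighbours on a chromosome, with *Efna3* between them.

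Detection followed the same split. Above background on both arrays numbered 1 and on none of the other 4 were 5 of 63 unflagged guidance probes (7.94%), against 3.21% of probes with 1 symbol. They were those of *Nrp1*, *Unc5c*, *Sema3f* and *Efnb3* and the second probe of *Nrp2*. *Nrp1* (probe 568174), the co-receptor of Sema3a, had signal-to-noise values of 37.62, 2.27 and 1.76 on the Id2-/- arrays and 15.25, 0.57 and -0.46 on the Id2+/+ arrays. Its log2 signals were 2.33, -0.31 and -0.64 on the Id2-/- arrays and 2.19, -1.76 and -1.76 on the Id2+/+ arrays. The arrays numbered 1 were thus alike between genotypes and stood far from the rest, and *Nrp1* was not tested.

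Other genes of the pathway were taken from lists by role. Of 39 genes for guidance co-receptors and related cues, 32 had a probe and 20 were tested, and of 72 genes for intracellular effectors of guidance receptors, 50 had a probe and 29 were tested. Limma without the block called 0 of 20 and 0 of 29. The median difference was 0.18 for the co-receptors and related cues and 0.11 for the effectors, against 0.04 over all tested probes, and without both arrays numbered 1 it was -0.03 and -0.10, against -0.11. With the array number as a block, 2 of the 20 were higher, 2 were lower, and 1 of the 29 was higher, against 2.18% of all tested probes in either direction (135 higher and 143 lower of 12741), and none of these 5 passed once quantile normalization was added. Higher with the block were *Sdc1*, a heparan sulfate proteoglycan, by 1.20, *Cntn3*, a contactin, by 0.91, and *Fes*, a cytoplasmic tyrosine kinase, by 0.93. Lower were *Lingo1*, a co-receptor in myelin inhibition of axons, by -1.78, and *Flrt3*, a ligand of Unc5 receptors, by -1.10. In the fit with the block all probes share 1 standard error, 0.27, so a call there rests on the size of the difference and not on the gene's own spread. Without the block the standard error of *Sdc1* was 1.49. For *Sdc1*, *Cntn3* and *Fes* only 1 Id2+/+ array was above background, for *Lingo1* only 1 Id2-/- array and for *Flrt3* 2 Id2-/- arrays. Part of each difference thus comes from arrays where the probe was not above background. Each of these 5 entered the test only through the genotype where it was higher, so the filter itself favoured a difference in that direction.

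Markers of the cell types in the gut wall were set beside these values. Limma called 0 of the tested markers with or without the block. The defining markers *Cdx2* and *Cdh1* of intestinal epithelium and *Pecam1* of endothelium were above background on all 6 arrays, *Foxf1* of gut mesenchyme and *Cdh5* of endothelium on 2 Id2-/- arrays and 1 Id2+/+ array, and *Sox10* of enteric crest cells is not among the probes named here. For enteric crest cells and neurons 8 of 15 markers had a probe and 7, *Ret* and *Tubb3* among them, were above background on all 6 arrays. Their summed signal, as a multiple of the array median, was 722 to 836 on the Id2-/- arrays and 590 to 914 on the Id2+/+ arrays, with a median difference of 0.07. Of 9 tested endothelial markers 9 had a positive difference, with a median of 0.41. Their pair medians were 1.27, 0.24 and -0.12 for numbers 1, 2 and 3, and without both arrays numbered 1 the median was 0.10. The summed signal of the 9 tested was 125 to 167 on the Id2-/- arrays and 76.4 to 137 on the Id2+/+ arrays. Of 13 tested epithelial markers 13 had a negative difference, with a median of -0.28. Their pair medians were 0.48, -0.49 and -0.83, so the pair numbered 1 ran the other way, and without both arrays numbered 1 the median was -0.61. The summed signal of the 13 tested was 793 to 941 on the Id2-/- arrays and 554 to 1618 on the Id2+/+ arrays.

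The summed signal of the 11 tested mesenchymal markers was 3714 on the Id2-/- array numbered 1 and 3080 on the Id2+/+ array numbered 1. It was 6236 and 6917 on the other Id2-/- arrays and 7459 and 7689 on the other Id2+/+ arrays. Bright probes weigh most in such a sum, and the markers did not move together. Both arrays numbered 1 lay below all the rest for 5 of the 11 and above them for 2. The mean shift of the arrays numbered 1 was -1.93 for *Col1a2* and -2.15 for *Dcn*, but 1.42 for *Nkx2-3* and 1.39 for *Hand1*. The defining marker *Foxf1* and *Pdgfrb* were not tested and are not in this sum, and their shifts were 3.14 and 2.05. Between the genotypes the median difference of the 11 was -0.01, and -0.14 without both arrays numbered 1. The 6 tested smooth muscle markers had a median difference of 0.16, with pair medians of 0.73, -0.05 and -0.50, and -0.32 without both arrays numbered 1. The summed signal of the 6 tested was 907 to 1059 on the Id2-/- arrays and 559 to 1547 on the Id2+/+ arrays. Of the lists with 3 tested markers each, the median difference was 0.72 for erythroid cells, with 3 of 3 positive, 0.06 for mesothelium and -0.04 for macrophages. Without both arrays numbered 1 these medians were 0.55, 0.47 and -0.18. The summed signal of the 3 tested erythroid markers was 747 to 1193 on the Id2-/- arrays and 487 to 760 on the Id2+/+ arrays. The erythroid median and sum rest mostly on the globin genes *Hba-x* and *Hbb-y*, with differences of 0.88 and 0.72. The third marker, *Alas2*, differed by 0.04, with pair values of 0.78, -0.37 and -0.28. The part of these cell types in the values of the guidance genes was not tested.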

How the data were processed

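Amplified total RNA was hybridised to Applied Biosystems mouse genome survey arrays (version 2.0). The deposited files hold, per probe, a signal and a median-normalized signal, both intensity values on a linear scale, a signal-to-noise score of the scanner software and a flag. The authors divided each array's intensity by a constant that equals the median of its unflagged spots (708.0 to 1010.4), which can leave offsets between arrays. Background correction is not stated in the sources used here. The methods exclude a flag below 5000. Here the reverse was used, with spots flagged 5000 or higher left out as bad, and this left 32189 probes.

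Log2 of the normalized intensity that the authors deposited was tested with limma 3.58.1 (lmFit and eBayes) in R 4.3.3 over 12741 probes, with an adjusted p under 0.05 as the call. The fit was run on simulated data, to check that the median estimate came close to the change put in. The simulated noise was independent between arrays and lacked the shift of the arrays numbered 1, so that run does not bear on this shift. Symbols come from the platform annotation (14411 probes with 1 symbol, 247 with several, 18354 with none), and a gene with several probes is given by its brightest tested probe. Coordinates are not given, since no genome of the array's design was used. Values on every array are given for genes that passed limma, were 1.5-fold apart, or had 1 sign in all pairs with groups that did not overlap, and for the ligand and receptor with the smallest unadjusted p in each family. Members and lists were chosen with earlier results of these data known.

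Pairing by array number was checked on the departures from the genotype means, whose correlation was 0.838, 0.644 and 0.579 for numbers 1, 2 and 3. The arrays were treated as paired by number, but for numbers 2 and 3 these correlations do not decide the pairing. Id2-/- number 3 correlated at 0.638 with Id2+/+ number 2, and Id2-/- number 2 at 0.549 with Id2+/+ number 3. The labels mention littermates and say no more on it. In the blocked fit limma estimated infinite prior degrees of freedom, and all probes share 1 variance. Alternatives were quantile normalization, 2 other limits for dim probes, an added offset of 0.5, a trended robust prior, the replicate block, the series table (identical values), each probe counted by itself, a 1.5-fold change in each pair and leaving out each array. Leaving out both arrays numbered 1 was added after the data were seen. Figures were drawn with matplotlib 3.10.9.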

Additional observations from a re-analysis of the deposited data

How the results depend on the processing

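Limma called no guidance gene under any alternative run, the replicate block and the replicate block with quantile normalization included. This was 0 of 21, except for 0 of 59 with no filter on dim probes and 0 of 20 with signal-to-noise of at least 3 on all 6 arrays. The replicate block called 278 of all probes (2.18%) and, with quantile normalization, 0, and the pairing changed no call of a guidance gene. The median difference moved by less than the spread of the pair medians, and lay between 0.01 and 0.21 when 1 array was left out. At least 1.5-fold apart were 0 of 21, but 11 of 59 with no filter on dim probes, 0 to 3 when 1 array was left out, and 2 without both arrays numbered 1 (*Sema3b* and *Sema4a*). The sign of the difference held for 8 of 21 genes under every alternative and turned under at least 1 for 13. *Sema3d* was at -0.034 with quantile normalization, with or without the replicate block. Without both arrays numbered 1, *Robo1* was at -0.066, *Sema7a* at -0.14, *Efnb1* at -0.15 and *Ephb4* at -0.0041. When 1 array was left out, the difference ran from -0.21 to 0.13 for *Unc5a*, from -0.20 to 0.70 for *Unc5b*, from -0.21 to 0.55 for *Robo1*, from -0.019 to 0.19 for *Sema3a*, from -0.20 to 0.25 for *Sema3d*, from -0.50 to 0.086 for *Sema4d* and from -0.091 to 0.14 for *Sema7a*. It ran from -0.51 to 0.31 for *Nrp2*, from -0.76 to 0.50 for *Efna1*, from -0.81 to 0.90 for *Efna4*, from -0.25 to 0.49 for *Efnb1*, from -0.17 to 0.28 for *Ephb1* and from -0.011 to 0.26 for *Ephb4*. Leaving out 1 array unbalances the array numbers between genotypes, which enters these values. With 3 arrays per genotype, no interval of a guidance gene stayed within 1.5-fold.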
